A study of Mus musculus with 6 samples.

Results

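Spp1, the gene of osteopontin, and a selection of genes for receptors known to bind it were followed in whole mouse oviducts. The set held 10 genes out of 55276 in the expression table. They were the ligand Spp1, the non-integrin receptor Cd44, and 8 integrin subunit genes, Itgav, Itgb1, Itgb3, Itgb5, Itgb6, Itga4, Itga5 and Itga9. Spp1 was chosen on its difference between the genotypes compared here, so that its values are given as a description without a test. The 9 receptor genes were chosen by what their proteins bind, but with earlier results of these data known.

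The oviducts came from pregnant C57BL/6 females on day 2 of pregnancy. The 3 control libraries were from Cdc42f/f mice, in which both copies of Cdc42 carry loxP sites, and the 3 others from PgrCreCdc42f/f mice, which carry the same floxed alleles and a Cre recombinase expressed from the progesterone receptor gene Pgr (below also called libraries or oviducts with PgrCre). The study placed the loss of CDC42 protein in the isthmus, whereas the libraries were made from the whole tube. No library of mice with PgrCre and unfloxed Cdc42 was used here, so an effect of PgrCre alone cannot be told apart from that of the deletion. The methods give an age of 8 weeks or more for mated females, the labels do not give the number of animals behind a library, and the p-values measure the spread between the libraries as deposited.

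Between 42.4 M and 46.4 M reads per library were recovered from the RPKM values (reads per kilobase of exon, scaled to the depth of the library). The targeted gene Cdc42 was at 127.6, 130.2 and 142.4 RPKM in the control libraries as against 113.6, 125.5 and 120.9 RPKM with PgrCre. Its log2 difference of -0.15 was not past the threshold (limma, adjusted p = 0.359), and a whole-gene value also holds reads from cells that kept the gene. The loxP sites flank only part of the gene, which a whole-gene value does not show apart. The study reported less Cdc42 mRNA by qPCR and less protein by western blot in oviducts of PgrCreCdc42f/f mice. The oviduct markers Ovgp1, the gene for the oviduct-specific glycoprotein, and Foxj1 and Pax8, factors of ciliated and secretory cells, were present in all 6 libraries. With a threshold of 0.05 on the adjusted p, 134 of 17584 tested genes (0.762%) were called higher with PgrCre and 157 (0.893%) lower. An unadjusted p below 0.05 was found for 3656 of the 17584 tested genes, 1713 of them higher with PgrCre and 1943 lower. These counts, and the shares called, are the background for every set of genes below.

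Osteopontin is a secreted, heavily phosphorylated and acidic matrix protein that also acts as a cytokine. It is a major protein of bone and is made as well by activated macrophages and T cells and by the epithelia of several ducts. In the reproductive tract it is best known from the uterus, where it is secreted by glands and bridges integrins around the time of implantation. An arginine-glycine-aspartate (RGD) site in the middle of the protein is bound by integrins such as αv paired with β1, β3, β5 or β6, and α5β1. Next to it lies a second site that is exposed when thrombin or a matrix metalloproteinase cuts the protein, and this is bound by α9β1 and α4β1. CD44, the main cell-surface receptor for hyaluronan, is another osteopontin receptor.

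The coding sequence of Spp1 around both sites is shown because it joins the ligand to the integrin genes described here. The stretch of 72 bases lies in exon 6 of 7, on the plus strand at chr5:104439463-104439534 (GRCm38, GENCODE M21), and was found in 5 of 7 coding transcripts of the gene. Capitals mark the RGD codons in the first line and the 7 codons that follow them, which hold the site for α9β1 and α4β1, in the second line.
RGD site: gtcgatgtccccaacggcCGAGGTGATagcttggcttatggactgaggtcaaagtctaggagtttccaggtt
Adjacent site: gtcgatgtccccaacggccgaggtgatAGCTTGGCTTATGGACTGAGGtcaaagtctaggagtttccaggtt
The RGD codons occurred 1 time in the translated transcript of 294 residues, starting at residue 144. A gene-level value adds up all transcripts, with and without this stretch.

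Spp1 (ENSMUSG00000029304, chr5:104435118-104441050) was low in the control oviducts and abundant in all PgrCreCdc42f/f oviducts. It was at 0.419, 0.301 and 1.28 RPKM in the 3 control libraries, from 30, 23 and 102 reads. It was at 56.7, 54.3 and 57.3 RPKM with PgrCre, from 4370, 3802 and 4426 reads. The groups did not overlap, and the control library with the highest value was replicate 3. The mean rose from 0.668 ± 0.536 RPKM (SD, n = 3) to 56.1 ± 1.59 RPKM (SD, n = 3), which is 84.1-fold, and the lowest PgrCreCdc42f/f library stood 42.4-fold above the highest control library. Without control replicate 3 the fold of the means was 156, and with any other library left out it lay between 66.0 and 85.4. Relative to the mean, the control libraries varied far more among themselves than the PgrCreCdc42f/f libraries did.

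Ranked among all genes above 0 in its own library, Spp1 went from the middle of the list to near its top. It ranked 17965, 19725 and 14212 from the highest in the control libraries, above 33.7% to 51.7% of these genes. It ranked 630, 690 and 672 in the PgrCreCdc42f/f libraries, above 97.7% to 97.9% of them. Reads counted for Spp1 could in part stem from a neighbour, since 18.75% of its exon bases are shared with the predicted gene Gm42793 on the same strand. Gm42793 itself was listed at 0 in 4 libraries and at 0.102 and 0.0682 RPKM in PgrCreCdc42f/f replicates 1 and 3.

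**Figure D1:**
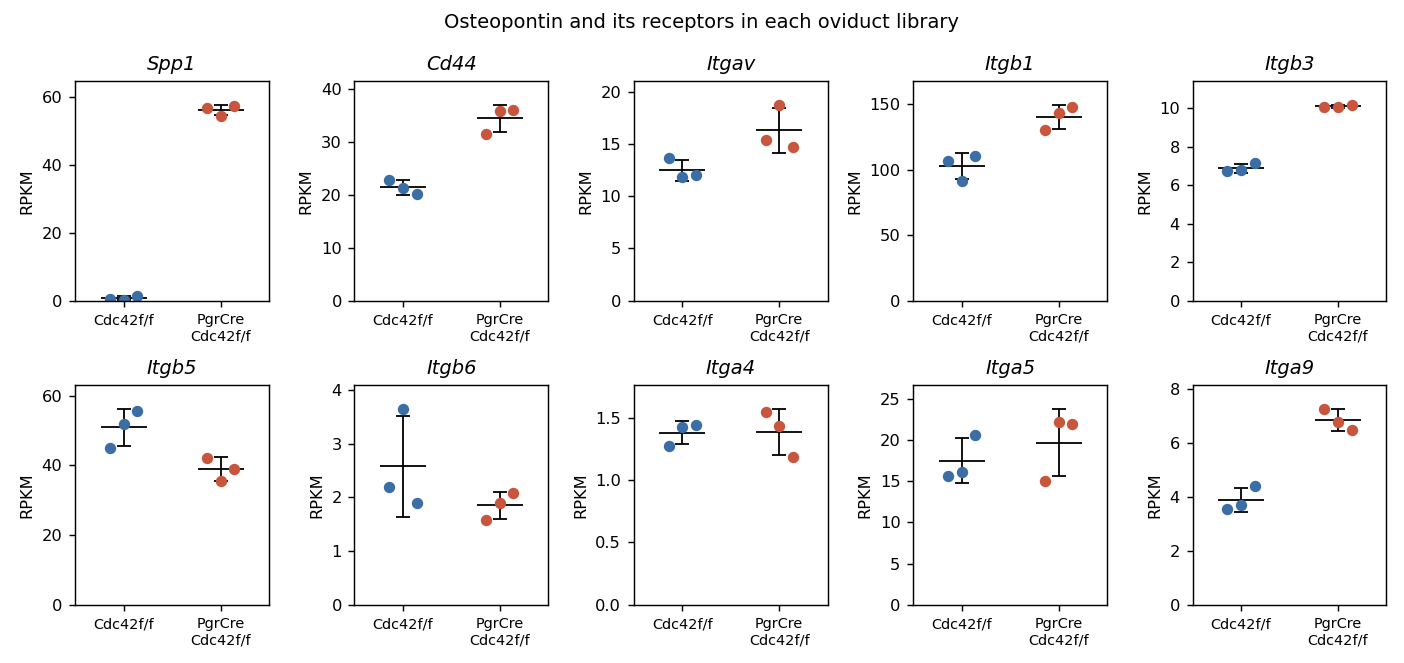
RPKM of the 10 genes in the 3 Cdc42f/f libraries (blue) and the 3 PgrCreCdc42f/f libraries (red), on linear axes that start at 0 and differ between panels. Each point is 1 library, and the bars give the mean ± SD. The groups separate upward for Spp1, Cd44, Itgav, Itgb1, Itgb3 and Itga9, separate downward for Itgb5, and overlap for Itgb6, Itga4 and Itga5.

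The bases before the Spp1 start site are shown because the gene's transcript was the one that differed most in this set. The sequence holds 250 bases upstream of the start at chr5:104434861-104435110, plus strand (RefSeq, GRCm38.p6). Capitals mark matches to a Runx motif (TGTGGT, here on the reverse strand) and an Ets motif (GGAAGT), which start 128 and 111 bases upstream.
Spp1 promoter: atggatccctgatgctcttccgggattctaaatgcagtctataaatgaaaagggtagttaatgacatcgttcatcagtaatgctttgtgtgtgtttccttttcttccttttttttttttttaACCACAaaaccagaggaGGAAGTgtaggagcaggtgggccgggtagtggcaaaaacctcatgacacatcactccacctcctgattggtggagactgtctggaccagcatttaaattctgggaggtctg
Searched on both strands of windows of 300 bases (250 before and 50 after a start), the Runx motif was present in 16.8% and the Ets motif in 23.8% of 32851 promoters. The letters of the AP-1 motif (TGANTCA) were in 7.81% of promoters and not in this window. The motifs did not overlap each other here, and such matches are a description of the sequence. Promoters of 9 of the 10 genes were in the table used, without Itgb3.

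Of the 9 receptor genes, Cd44, Itgb3 and Itga9 were called higher in PgrCreCdc42f/f oviducts and 6 were not called. These 3 compare with 0.762% of all tested genes called higher. None was called lower, against 0.893% of all tested genes, although 1 (Itgb5) had an unadjusted p below 0.05 in that direction, and limma-voom on the recovered reads also called 0 lower. The groups did not overlap in the upward direction for 5 receptor genes (13.5% of all tested genes) and in the downward direction for 1 (13.9%). The median log2 difference of the 9 genes was 0.38, beside 0.0058 over all tested genes.

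Cd44 (chr2:102811141-102901665) encodes the hyaluronan receptor that also binds osteopontin outside the RGD site. It was at 22.7, 21.2 and 20.1 RPKM in the control libraries as against 31.4, 35.9 and 35.9 RPKM with PgrCre. Every PgrCreCdc42f/f library was above every control library. The means of 21.3 ± 1.33 and 34.4 ± 2.59 RPKM (SD, n = 3 each) differ 1.61-fold, with a log2 difference of 0.69 (SE 0.09, 95% interval 0.47 to 0.90, limma adjusted p = 0.0291). The variant exons of CD44, which differ between epithelial and blood cells, cannot be read from a gene-level value.

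Itgb3 (chr11:104608000-104670476) encodes the β3 chain, which forms αvβ3, the classic osteopontin receptor of osteoclasts, with αv. It was at 6.71, 6.78 and 7.15 RPKM in the control libraries as against 10.1, 10.1 and 10.2 RPKM with PgrCre. The libraries of each genotype lay close together, with means of 6.88 ± 0.238 and 10.1 ± 0.0746 RPKM (SD, n = 3 each). The log2 difference was 0.55 (SE 0.07, 95% interval 0.37 to 0.72, limma adjusted p = 0.0293), or 1.47-fold.

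Itga9 (chr9:118606690-118901003) encodes α9, which with β1 binds the site next to RGD. It was at 3.56, 3.70 and 4.40 RPKM in the control libraries as against 7.27, 6.79 and 6.48 RPKM with PgrCre. Again the genotypes did not overlap, and Itga9 had the largest fold among the 9 receptor genes, 1.76-fold from 3.89 ± 0.451 to 6.85 ± 0.395 RPKM (SD, n = 3 each). Its log2 difference was 0.80 (SE 0.11, 95% interval 0.54 to 1.07, limma adjusted p = 0.0313).

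These 3 calls stood near the threshold. When 1 library at a time was left out, Cd44 and Itgb3 were called only without PgrCreCdc42f/f replicate 1 (adjusted p = 0.0338 and 0.0487), and without any of the other 5 libraries (all 3 controls and PgrCreCdc42f/f replicates 2 and 3) their adjusted p lay between 0.0601 and 0.108. Itga9 was called in none of the 6 (adjusted p = 0.0567 to 0.111). The log2 differences themselves moved little, between 0.64 and 0.75 for Cd44, 0.53 and 0.58 for Itgb3, and 0.75 and 0.90 for Itga9.

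The partner chain of β3, αv, and the chain shared by most of these receptors, β1, were higher in every PgrCreCdc42f/f library without passing the test. Itgav, the α chain of all RGD-binding αv integrins, was at 13.7, 11.8 and 12.02 RPKM in the control libraries as against 15.5, 18.8 and 14.7 RPKM with PgrCre. Its log2 difference was 0.38 (SE 0.12, 95% interval 0.09 to 0.66, limma adjusted p = 0.148). Itgb1 was at 106.9, 91.1 and 110.1 RPKM and at 129.8, 142.8 and 148.0 RPKM in the same order. The log2 difference of Itgb1 was 0.45 (SE 0.10, 95% interval 0.20 to 0.70, limma adjusted p = 0.0824), and the groups overlapped for neither gene. An antisense neighbour, Gm13684, covers 5.90% of the exon bases of Itgav on the opposite strand.

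Itgb5 and Itgb6, for β chains that also pair with αv, were not called, and their difference from Itgb3 was not tested. Itgb5, whose protein pairs only with αv, was at 45.1, 51.8 and 55.7 RPKM in the control libraries as against 42.2, 35.6 and 39.0 RPKM with PgrCre. All 3 PgrCreCdc42f/f values lay below the controls, with a log2 difference of -0.38 (SE 0.11, 95% interval -0.64 to -0.12, limma adjusted p = 0.123). Itgb6, the β chain of the epithelial integrin αvβ6, which also activates latent TGF-β, was at 2.19, 3.65 and 1.89 RPKM in the controls as against 1.58, 1.89 and 2.07 RPKM with PgrCre. These ranges overlapped, and the log2 difference of -0.41 had a 95% interval of -1.03 to 0.20 (limma adjusted p = 0.414).

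Itga4 and Itga5 gave no call in either direction. Itga4, whose α4 chain is found mainly on white blood cells, was at 1.27, 1.43 and 1.44 RPKM in the controls as against 1.55, 1.43 and 1.19 RPKM with PgrCre. Its log2 difference was 0.00 (95% interval -0.38 to 0.38, limma adjusted p = 0.997), and 8.04% of its exon bases lie opposite Cerkl. Itga5, the α chain of the fibronectin receptor α5β1, was at 15.7, 16.2 and 20.7 RPKM in the controls as against 15.0, 22.2 and 22.0 RPKM with PgrCre. The lowest of all 6 libraries for Itga5 was a PgrCreCdc42f/f library, and the log2 difference was 0.16 (95% interval -0.29 to 0.61, limma adjusted p = 0.668).

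**Figure D2:**
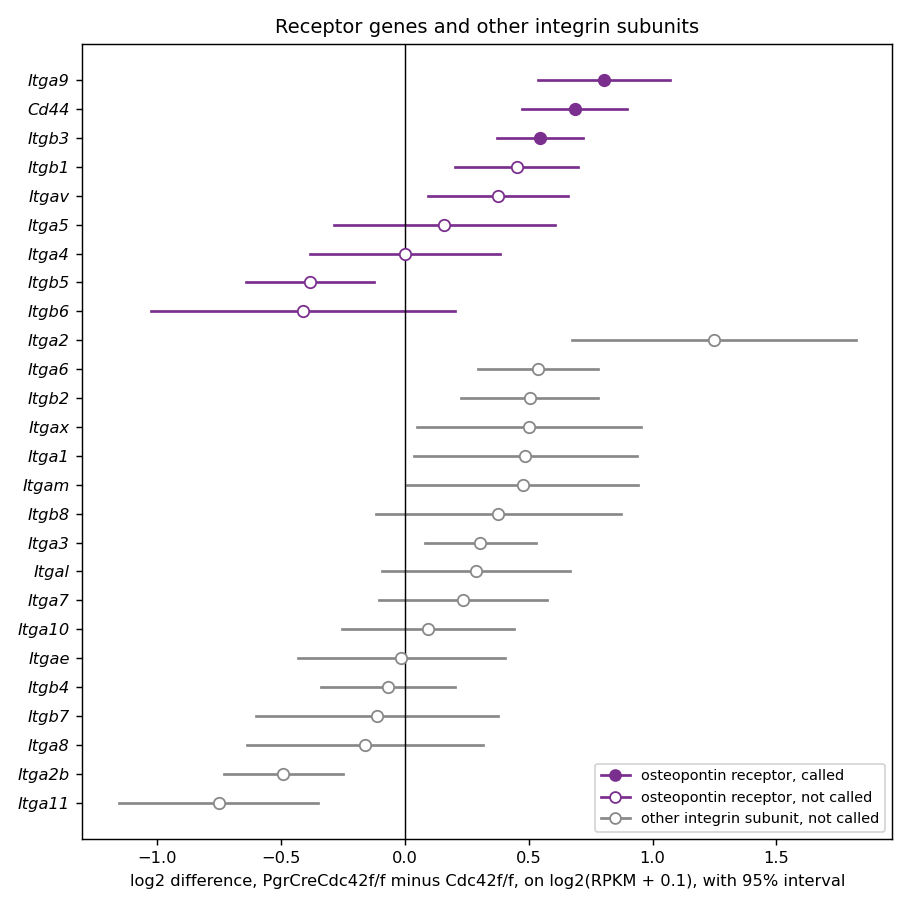
Log2 difference (PgrCreCdc42f/f minus Cdc42f/f, on log2(RPKM + 0.1)) of the 9 receptor genes (purple) and 17 other integrin subunit genes (grey), with 95% intervals from limma. Filled points were called. The intervals of Cd44, Itgb3 and Itga9, the 3 called genes, lie above 0. Those of Itgav and Itgb1 also lie above 0, and that of Itgb5 below it, without a call. Those of Itga4, Itga5 and Itgb6 span 0. Some of the other integrin subunit genes likewise have intervals wholly above or below 0 without a call.

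The order of the 10 genes by level (RPKM, which is per length of annotated exon) was led by Itgb1 in both genotypes. In the control oviducts Itgb1 was followed by Itgb5, Cd44, Itga5, Itgav, Itgb3, Itga9, Itgb6, Itga4 and Spp1. The ranges of the libraries overlapped between Cd44 and Itga5, between Itga9 and Itgb6, and between Itga4 and Spp1, so that the order within these pairs is not resolved. In the PgrCreCdc42f/f oviducts Spp1 moved from the last to the second place, ahead of Itgb5 and Cd44, whose ranges overlapped, as did those of Itga5 and Itgav. The other neighbours kept the same order, and none of their ranges overlapped.

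**Figure D3:**
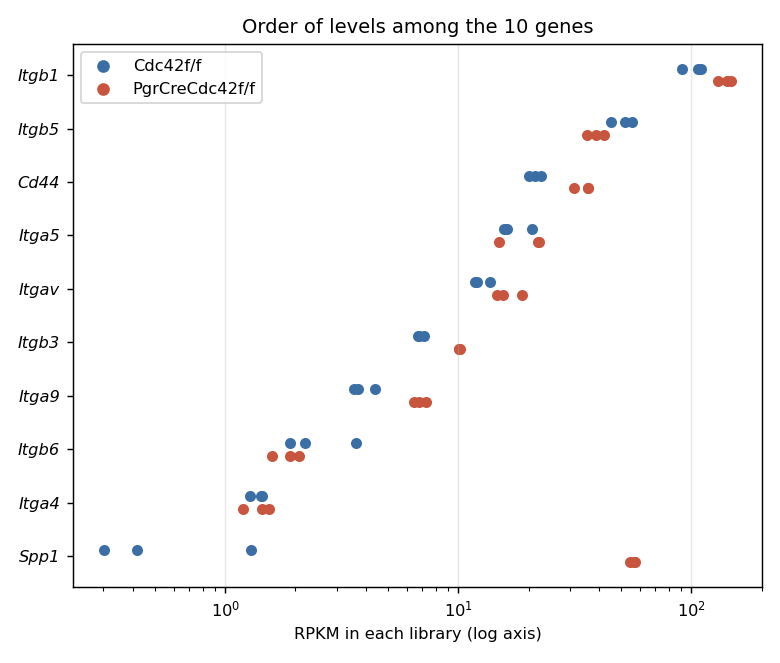
RPKM of the 10 genes in each library on a log axis, ordered by the control mean, with Cdc42f/f in blue and PgrCreCdc42f/f in red. Spp1 lies at 0.301 to 1.28 RPKM in the controls as against 54.3 to 57.3 RPKM with PgrCre, above all receptor genes but Itgb1.

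The balance among the β chains was examined after their values were seen and is given as a description. Itgb3 made up 12.4%, 10.9% and 11.1% of the summed RPKM of Itgb3, Itgb5 and Itgb6 in the control libraries and 18.7%, 21.2% and 19.9% in the PgrCreCdc42f/f libraries. Itgb5 remained the main transcript of the 3, at 83.3% to 86.0% in the controls and 74.9% to 78.4% in PgrCreCdc42f/f oviducts. The ratio of Itgb5 to Itgb3 accordingly went from 6.71, 7.64 and 7.78 to 4.20, 3.54 and 3.83. The groups did not overlap in this ratio, which follows from Itgb3 lying higher and Itgb5 lower in every PgrCreCdc42f/f library.

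β3 also pairs with αIIb, the platelet chain encoded by Itga2b. Itga2b was at 3.60, 3.92 and 4.18 RPKM in the controls as against 2.74, 2.70 and 2.79 RPKM with PgrCre (log2 difference -0.49, SE 0.10, limma adjusted p = 0.0656). It thus lay lower where Itgb3 lay higher, and the ratio of Itgb3 to Itga2b was 1.86, 1.73 and 1.71 in the controls and 3.67, 3.73 and 3.65 in PgrCreCdc42f/f oviducts. Of 7 platelet markers, 1 (Pf4) passed the filter on low values, with a log2 difference of 0.90 (limma adjusted p = 0.155). The sum of the 7 was 3.62 to 5.82 RPKM in the controls as against 6.33 to 9.13 RPKM with PgrCre. The platelet glycoprotein genes Gp9, Gp1bb and Gp6 were at or below 0.0971 RPKM in every library.

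**Figure D4:**
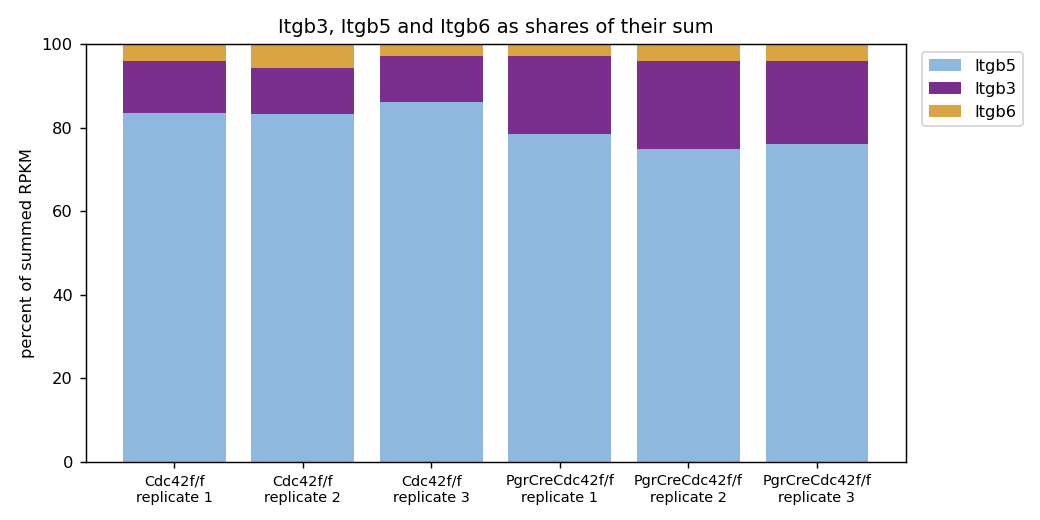
Share of Itgb3, Itgb5 and Itgb6 in their summed RPKM in each library, in percent. Itgb3 takes 10.9% to 12.4% in the 3 Cdc42f/f libraries and 18.7% to 21.2% in the 3 PgrCreCdc42f/f libraries.

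Among the 18 other integrin subunit genes, 17 were tested and 0 were called by limma, while 7 had an unadjusted p below 0.05 upward and 2 downward, and limma-voom called 1 (Itga2). Their median log2 difference was 0.29. The genotypes did not overlap in the upward direction for 7 of the 17 (13.5% of all tested genes) and in the downward direction for 2 (13.9%). Itga6, the α chain of epithelial laminin receptors, was at 11.6, 13.7 and 11.0 RPKM in the controls as against 16.7, 17.9 and 18.1 RPKM with PgrCre (log2 difference 0.54, limma adjusted p = 0.0564). Itga2, the α chain of a collagen receptor, was at 0.790, 1.29 and 1.55 RPKM and at 2.91, 2.75 and 3.08 RPKM (log2 difference 1.25, limma adjusted p = 0.0583). For both genes the genotypes did not overlap. The osteopontin receptors as a group were not tested against the other integrins.

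The close relatives of osteopontin in the SIBLING family of bone and tooth proteins stayed near 0 in both genotypes. Ibsp and Mepe were listed at 0 in all 6 libraries, and Dmp1 and Dspp did not exceed 0.0600 RPKM. None of the 4 passed the filter on low values. The markers of osteoclasts and osteoblasts, the bone cells known for osteopontin, gave 0 calls among 2 tested of 8, with 0 at an unadjusted p below 0.05 and 0 by limma-voom. Of these, Calcr, the calcitonin receptor of osteoclasts, was listed at 0 throughout, and Ctsk had a log2 difference of 0.12 (limma adjusted p = 0.852). Sp7, at 0.230, 0.426 and 0.415 RPKM and at 0.818, 0.554 and 0.521 RPKM, was tested only because it passed the filter with PgrCre.

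Osteopontin is phosphorylated by FAM20C, crosslinked by transglutaminases and cut by thrombin and several matrix metalloproteinases. Of 11 genes for such enzymes, 8 were tested and 0 were called by limma, with 5 at an unadjusted p below 0.05, all upward, and a median log2 difference of 0.70. Of these, Mmp12 passed the filter on low values only through the genotype in which it was higher, so it is given by its values alone. The other 7 had 4 at an unadjusted p below 0.05, a median of 0.66 and 0 calls. Mmp7, an epithelial metalloproteinase, was at 12.5, 34.2 and 25.3 RPKM in the controls as against 106.6, 52.9 and 73.7 RPKM with PgrCre (log2 difference 1.75, limma adjusted p = 0.0855). Its libraries varied widely within each genotype but did not overlap between them. Mmp12, the macrophage elastase, was low, at 0.114, 0.0656 and 0.160 RPKM and at 0.556, 0.641 and 0.614 RPKM. F2, the gene for prothrombin, which is made mainly in the liver, was under the filter at 0.0308 to 0.141 RPKM.

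Among 15 genes for other ligands of these integrins, Vcam1 was called higher and 0 of the 14 tested were called lower, with 1 (Vtn) below an unadjusted p of 0.05 in that direction and 0 lower by limma-voom. VCAM1 is the cytokine-inducible ligand of α4β1 and α9β1 on vessel walls and other cells. Vcam1 was at 1.08, 1.33 and 1.36 RPKM in the controls as against 6.47, 5.89 and 4.61 RPKM with PgrCre. The log2 difference was 2.08 (SE 0.17, limma adjusted p = 0.0107), and the call was kept in 3 of the 6 sets with 1 library left out. It was lost without control replicate 2, control replicate 3 or PgrCreCdc42f/f replicate 2, where the adjusted p reached 0.0704. The median log2 difference of this list was 0.14, and Fn1, the gene for fibronectin, was at 104.6, 61.7 and 84.3 RPKM and at 38.0, 79.9 and 79.0 RPKM (log2 difference -0.39, limma adjusted p = 0.548).

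The list for hyaluronan and partners of CD44 gave 1 call among 11 tested of 14 genes, with a median log2 difference of 0.18. The call was Msn, which encodes moesin, a linker of the CD44 tail to the actin cortex. Msn was at 22.7, 23.5 and 27.3 RPKM in the controls as against 40.6, 46.3 and 45.2 RPKM with PgrCre (log2 difference 0.85, SE 0.10, limma adjusted p = 0.0223). With 1 library left out it was called only without PgrCreCdc42f/f replicate 1, and its adjusted p otherwise reached 0.0901. The sister linkers Ezr and Rdx had log2 differences of 0.04 and 0.21 (limma adjusted p = 0.881 and 0.308). The hyaluronan synthase genes Has1 and Has2 were under the filter, and Has3 had a log2 difference of -0.13 (adjusted p = 0.787).

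Inside the cell, integrins act through talins, kindlins and the complex of ILK, PINCH and parvin. Of 20 genes for such adaptors, 19 were tested and 0 were called by limma or limma-voom, with 5 at an unadjusted p below 0.05 upward and 1 downward. The untested gene was Ilk itself, under the filter at 0.0343 to 0.241 RPKM, and why its listed values were so low was not tested. The median log2 difference was 0.18. Lims1, the gene for PINCH1, was at 26.7, 27.8 and 28.3 RPKM in the controls as against 30.9, 38.8 and 35.8 RPKM with PgrCre (log2 difference 0.34, limma adjusted p = 0.127). Fermt2, the gene for kindlin-2, was at 30.9, 30.8 and 40.1 RPKM and at 43.8, 44.5 and 43.6 RPKM (log2 difference 0.38, limma adjusted p = 0.136).

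Factors known to act on the Spp1 promoter gave 0 calls by limma or limma-voom among 6 tested of 7 genes, with 2 at an unadjusted p below 0.05, both upward, and a median log2 difference of 0.30. Fos, a partner in AP-1, was at 2.54, 3.73 and 3.52 RPKM in the controls as against 6.17, 5.90 and 5.41 RPKM with PgrCre (log2 difference 0.83, limma adjusted p = 0.0581). Jun, the other partner, had a log2 difference of 0.29 (limma adjusted p = 0.163). The bone factor Runx2 lay between 1.03 and 1.47 RPKM in all libraries (log2 difference 0.31, limma adjusted p = 0.307). Ets1 had a log2 difference of 0.38 (limma adjusted p = 0.294). Etv5, described below, was not in this list, so the 0 calls do not cover it.

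The genes whose pattern over the 6 libraries was most like that of Spp1 were sought among 2725 candidates with a range of at least 1 on the log2 scale. By Pearson correlation of log2(RPKM + 0.1) these were Mmp12 (r = 0.994), Msr1 (0.993), Itga9 (0.989), Apobec3 (0.989) and Msn (0.988). Etv5 and Sel1l3 (both 0.987) came next. The libraries form 1 cluster per genotype, so that a high r states mainly a clear difference between genotypes with little spread inside them, and it is given with no test.

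Msr1 and Mmp12 were candidates only through their level with PgrCre. Msr1, a scavenger receptor of macrophages, was at 0.163, 0.136 and 0.238 RPKM in the controls as against 0.769, 0.928 and 1.04 RPKM with PgrCre. Apobec3, an antiviral deaminase, was at 8.11, 6.92 and 8.46 RPKM and at 13.2, 13.4 and 14.2 RPKM. Etv5 was at 2.56, 2.00 and 2.54 RPKM and at 10.3, 9.77 and 8.32 RPKM (log2 difference 1.96). Whether it bears on the level of Spp1 was not tested. Over the same libraries the r with Spp1 was 0.997 for Itgb3, which had too small a range to be a candidate, 0.942 for Itgb1, 0.941 for Cd44 and 0.803 for Itgav. It was 0.413 for Itga5, 0.03 for Itga4, -0.663 for Itgb6 and -0.803 for Itgb5.

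Whole oviducts mix epithelium, muscle, stroma, vessels and white blood cells, and in such bulk samples more cells of a type and more RNA per cell cannot be told apart. The summed RPKM of 12 macrophage markers was 330 to 357 in the controls and 459, 627 and 578 in PgrCreCdc42f/f replicates 1, 2 and 3, 1.61-fold higher in the mean. Of the 12 genes, 1 was called higher and 0 lower, 7 had an unadjusted p below 0.05, all upward, and limma-voom called 1 higher and 0 lower. The groups did not overlap for 8 of them, all upward (13.5% of all tested genes), and the median log2 difference was 0.64, with all 12 differences above 0. The called gene was Tyrobp, an adaptor of myeloid receptors, at 32.6, 31.4 and 30.5 RPKM and at 44.4, 56.8 and 48.1 RPKM (log2 difference 0.65, limma adjusted p = 0.0431). With 1 library left out Tyrobp was called only without PgrCreCdc42f/f replicate 1 and its adjusted p otherwise reached 0.145.

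Macrophages rich in Spp1 are known in other tissues to carry Trem2, Gpnmb and lipid-handling genes. Of 8 such genes, 7 were tested and 0 were called by limma or limma-voom, with 0 at an unadjusted p below 0.05. Their summed RPKM was 232 to 261 in the controls and 248 to 259 in PgrCreCdc42f/f oviducts, most of it from Cd9, which many cell types express. Without Cd9 the sum was 55.6, 70.3 and 71.7 RPKM and 67.3, 104.7 and 73.8 RPKM. Most of this remainder was Lgals3, at 37.1, 49.5 and 50.5 RPKM and at 49.5, 73.9 and 47.7 RPKM. Arg1 was at 4.62, 4.75 and 2.63 RPKM and at 4.22, 9.78 and 8.49 RPKM (log2 difference 0.85, limma adjusted p = 0.253). Trem2 was at 0.810, 1.49 and 1.31 RPKM and at 1.41, 2.66 and 1.56 RPKM (log2 difference 0.59, limma adjusted p = 0.342), and the genotypes overlapped in both. The part of macrophages in the levels of Spp1, Cd44 and Itgb3 was not tested.

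Neutrophil markers were low, and their sum was higher in all 3 libraries with PgrCre, where S100a8 and S100a9 made up much of it. The sum over 8 genes was 9.12 to 13.2 RPKM in the controls and 41.4, 21.3 and 21.2 RPKM in PgrCreCdc42f/f replicates 1 to 3. Of 5 tested, 3 had an unadjusted p below 0.05, all upward, and 1, S100a8, was called higher, at 0.995, 1.24 and 0.896 RPKM and at 7.21, 3.90 and 3.57 RPKM (log2 difference 2.06, SE 0.28, limma adjusted p = 0.0313). It was called only without PgrCreCdc42f/f replicate 1 when 1 library was left out, and otherwise its adjusted p reached 0.0960. The log2 difference was 1.97 for S100a9, the partner of S100a8, 0.60 for Csf3r, the receptor for the growth factor G-CSF, 0.53 for Retnlg and -1.01 for Ly6g, the surface gene used to define mouse neutrophils (limma adjusted p = 0.0974, 0.129, 0.521 and 0.280). The 9 T and NK cell markers summed to 4.18 to 6.55 RPKM and 6.16 to 9.24 RPKM, with 0 of 5 tested called by limma or limma-voom and 0 at an unadjusted p below 0.05. Among them Gzma had a log2 difference of 1.63 (limma adjusted p = 0.363). Cd8b1 passed the filter only through the controls, at 0.559, 0.539 and 1.03 RPKM and at 0.462, 0.413 and 0.403 RPKM.

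Muscle, vessel and stroma markers gave 0 calls by limma or limma-voom. Smooth muscle markers, from cells that carry much Itgb1, Itga5 and Itga9, summed to 1455, 1460 and 2239 RPKM in the controls as against 2097, 2502 and 2439 RPKM with PgrCre, with 2 of 6 at an unadjusted p below 0.05. Myh11 had a log2 difference of 0.72 (limma adjusted p = 0.128) and Des one of 0.42 (adjusted p = 0.171). Endothelial markers summed to 41.4 to 52.5 and 48.1 to 59.0 RPKM, with 2 of 7 at an unadjusted p below 0.05, Pecam1 at a log2 difference of 0.39 (limma adjusted p = 0.134) and Tek at 0.26 (adjusted p = 0.212). Fibroblast markers summed to 538 to 757 and 406 to 544 RPKM, with 2 of 6 at an unadjusted p below 0.05, Lum at a log2 difference of -0.75 (limma adjusted p = 0.129) and Pdgfra at 0.25 (adjusted p = 0.211). How much these cells contributed to the receptor values was not tested.

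The epithelial markers did not move as one. Of 8 oviduct epithelial markers, 0 were called by limma, 3 had an unadjusted p below 0.05 and 1 (Krt8) was called by limma-voom. Krt8 had a log2 difference of 0.57 (limma adjusted p = 0.0524), Epcam one of 0.39 (adjusted p = 0.0625) and Pax8 one of -0.84 (adjusted p = 0.0683). Foxj1 had one of -0.49 and Ovgp1 one of -0.36 (limma adjusted p = 0.266 and 0.552), with overlapping genotypes in both. The study reported Foxj1 as significantly reduced by RNA-seq and qPCR. Of 6 uterine epithelial markers, for tissue next to the oviduct in which osteopontin is well known, 4 were tested and 0 called by limma. Without Sprr2e, which passed the filter only with PgrCre, 1 of 3 had an unadjusted p below 0.05, downward, and limma-voom called 0. The sum of the uterine list was 22.8 to 36.3 RPKM in the controls as against 17.7 to 28.2 RPKM with PgrCre. Sprr2e was at 0.0711, 0 and 0 RPKM and at 1.06, 0.582 and 0.528 RPKM, and Wfdc3 had a log2 difference of -0.72 (adjusted p = 0.127).

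Markers of neighbouring tissues and of blood gave 0 calls by limma. Ovarian markers summed to 3.96 to 4.38 and 3.66 to 5.20 RPKM, with Cyp19a1 and Fshr listed at 0 and Star as the 1 tested gene (log2 difference 0.08, limma adjusted p = 0.816). Fat markers summed to 4.52 to 10.5 RPKM in the controls as against 0.627 to 1.82 RPKM with PgrCre, with 0 of 2 tested genes called by limma. Cfd had a log2 difference of -2.91 (limma adjusted p = 0.0754, unadjusted p below 0.05, not called by limma-voom). Adipoq passed the filter only through the controls, at 0.633, 1.47 and 1.29 RPKM and at 0.0619, 0.205 and 0.155 RPKM. Red blood cell markers summed to 30.8 to 100.6 and 26.4 to 51.0 RPKM, with 0 of 5 called by limma or limma-voom and 0 at an unadjusted p below 0.05, Hbb-bt at a log2 difference of -0.67 (limma adjusted p = 0.475) and Hba-a2 at -0.53 (adjusted p = 0.489).

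**Figure D5:**
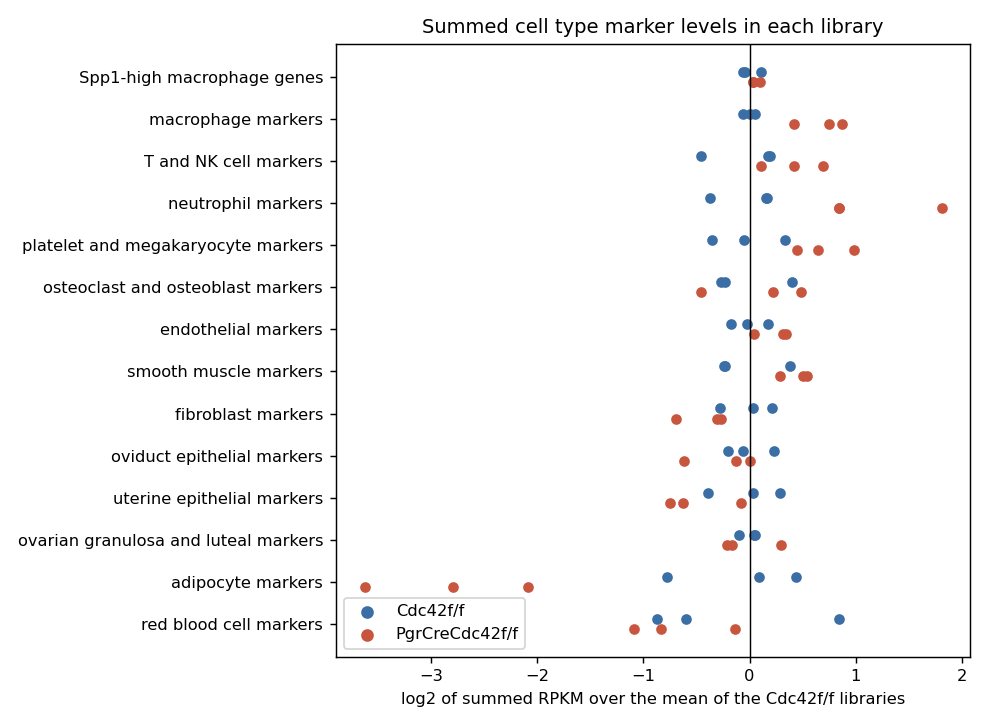
Log2 of the summed RPKM of each marker list in each library over the mean of the control libraries, for Cdc42f/f (blue) and PgrCreCdc42f/f (red). The macrophage and neutrophil sums are higher in all 3 PgrCreCdc42f/f libraries than in any control, as is the platelet sum, the Spp1-high macrophage sum overlaps between genotypes, and the fat marker sum is lower.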

How the data were processed

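RNA of whole oviducts was sequenced on a BGISEQ-500 in 3 Cdc42f/f and 3 PgrCreCdc42f/f libraries. The authors deposited RPKM values for 55276 genes, with 1 column per library and 0 columns of other samples. HISAT2, mm10 (GRCm38) and edgeR are listed in the processing notes of the authors, and Tophat2 in the methods. Which of these made the table, the annotation and the strand setting are not given in the sources used here, and genes that overlap others are less certain. With GENCODE M21 exon lengths, 98.8% of 35358 rows gave whole reads within 0.01 of a read.

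Genes with at least 0.5 RPKM in at least 3 libraries were tested as log2(RPKM + 0.1) with limma 3.58.1 (R 4.3.3, moderated with a variance trend, Benjamini-Hochberg adjustment over 17584 genes). Fold changes of low genes are understated on this scale. An exact permutation test of 3 against 3 libraries could not go below p = 0.1, so none is given for single genes. The fit was tested on simulated data. Groups and replicates came from the genotype label and the title. Alternatives were other pseudocounts, filters and scalings, no variance trend, a replicate block, limma-voom on the recovered reads, and each library left out.

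The members and lists were chosen with earlier results of these data known. All 10 members were named. From other lists the called genes, up to 4 by smallest p, were named, or without a call the 2 tested genes with the smallest p, and the 5 genes most correlated with Spp1 with the next 2, without pseudogenes, Rik clones and predicted genes. Cdc42, Gm42793, Itga2b, Runx2, Ets1, Fn1, Vtn, S100a9, Csf3r, Retnlg, Ly6g, Cd9, Lgals3, Has1, Has2, Has3, Ezr, Rdx, Pax8, Foxj1, Ovgp1, F2 and those named at 0 or under the filter were added after their values were seen. Sequences came from GENCODE M21, its genome, and RefSeq.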

Additional observations from a re-analysis of the deposited data

How the results depend on the processing

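Since Spp1 was chosen on its difference between the genotypes, the 15 alternatives describe only the size of that difference and do not test it. Its log2 difference was 6.41, fell to 5.14 with a pseudocount of 1 and lay between 6.05 and 6.94 with 1 library left out. Of all genes, 57 were called higher and 51 lower with no filter, and 75 higher with no variance trend, against 134 and 157. With 1 library left out, 9 to 132 genes were called higher, 3 to 179 lower, and 0 to 2 of the 9 receptor genes. Cd44 was called in 8, Itgb3 in 9 and Itga9 in 7 of 15 alternatives (adjusted p = 0.0169 to 0.125, 0.0229 to 0.123 and 0.0259 to 0.128), and the 6 other receptor genes in none. Besides the libraries left out, Cd44 lost its call with no variance trend (adjusted p = 0.0510) and Itga9 with no filter (0.0570). The cause was not tested, beyond the larger number of genes tested with no filter.

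With the replicate block, 0 genes were called higher, 0 lower and 0 receptor genes (Cd44 0.125, Itgb3 0.123, Itga9 0.128). Libraries with the same number did not clearly deviate together (correlations -0.03, -0.07 and 0.08), and 2 of the 6 correlated best with their own number. With 3 libraries per genotype, these correlations cannot show whether libraries of the same number were paired, and the study used littermate controls. Itga4, at a log2 difference of 0.00, changed sign with rescaling (-0.0034), limma-voom (-0.0235) and in some sets with a library left out (-0.0751 to 0.104). The filter on the mean left out Itga4. With 23 to 102 reads in the controls, the Spp1 level there is imprecise, and this sets the size of its fold.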
